A study of Mus musculus with 24 samples.

Results

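The proteasome is the protease complex that degrades proteins tagged with ubiquitin. Its core particle is a barrel of stacked rings, in which alpha subunits gate the entrance and beta subunits carry the proteolytic sites. A regulatory particle binds ubiquitin chains, removes them and unfolds the substrate, while alternative activators open the barrel without ubiquitin and assembly factors build the complex. When proteasome activity falls, cells raise the transcription of subunit genes together through the transcription factor Nfe2l1.

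The genes described here were those with a probe annotated to exactly 1 symbol starting with Psma, Psmb, Psmc, Psmd, Psme, Psmf or Psmg, leaving out Psmc3ip and Psme3ip1, which are not proteasome genes. This gave 79 probes of 36 genes out of 15360 probes and 6970 genes. Of 49 protein-coding mouse genes with such names, 13 were not measured here: Psma8, Psmb6, Psmb8, Psmb9, Psmb10, Psmc4, Psmc6, Psmd12, Psmd14, Psme2, Psme2b, Psme3 and Psmf1. The induced catalytic subunits of the immunoproteasome (Psmb8, Psmb9 and Psmb10) and the constitutive catalytic subunit Psmb6 were therefore not analysed.

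Mouse embryos in culture were exposed for 1 h to 40 µM 4-hydroperoxycyclophosphamide (4CP), a form of the anticancer drug cyclophosphamide that needs no activation by the liver and that gives rise to alkylating products. Control embryos were kept at 37 °C without drug. Total RNA of treated and control embryos shared each of 24 two-channel arrays. The sources used here give neither strain, embryonic age, embryos per RNA nor dyes. The arrays belonged to 2 platforms with different probe sets, called A and B here, with 12 arrays and 1 table of values each. A platform had 3 slide pairs, numbered by the titles, of which 1 slide of each had the treated RNA in channel 1 and its partner in channel 2, and each slide had 2 records. The labels do not say whether pair numbers stand for separate cultures, so the spread between pairs may be technical. Nor do they say whether pairs of the same number share RNA between platforms. RNA came from embryos, in which cell types are mixed, so that fewer cells of a type and less RNA per cell cannot be told apart.

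Every value is a log ratio of the 2 channels relative to the median probe of its array, in units whose log base (2 or e) is not stated. Were the base 2, a value of 0.1 would be 1.07-fold, and were it e, 1.11-fold. The effect of a slide pair is the difference between its slides divided by 2, which is positive where treated embryos held more RNA if channel 1 was the numerator. If channel 2 was the numerator, all signs turn together. The effect also presumes that the ratios of swapped slides were deposited unturned. Otherwise the sum of the slides divided by 2 carries the treatment. This sum is called here the value without the turn, and it is given beside the effects for the groups and lists. If the slides were deposited unturned, it holds the dye component and not the treatment. Embryo cell types could not be checked by level, since these data hold ratios only.

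No proteasome probe changed past the threshold (limma, Benjamini-Hochberg adjusted p of 0.05) on either platform. On platform A this was 0 of 33 probes, where 0 percent of all 7680 probes passed, and 0 of the 33 had an unadjusted p under 0.05, against 2.34 percent of all probes. On platform B it was 0 of 46 probes, where again 0 percent of 7680 passed. Of the 46, 0 had an unadjusted p under 0.05, against 5.22 percent of all probes. They included 25 repeat spots of the Psmg4 clone. Mean effects of single probes ran from -0.0271 to 0.103 on platform A and from -0.0843 to 0.0593 on B. The lowest adjusted p of a member was 0.997 on A and 0.949 on B. The precision was that of 3 pairs: the 95 percent interval of a member probe had a median half-width of 0.114 on platform A and 0.0733 on B. Over all members the intervals reached from -0.137 to 0.212 on platform A and from -0.198 to 0.180 on B. On the positive side, a change beyond 1.24-fold in base e, or 1.16-fold in base 2, lay outside every interval of platform A. This bound holds only if swapped slides were deposited unturned, and the positive side is an increase only if channel 1 was the numerator. Read without the turn, gene means of that platform ran from -0.724 to 0.267. Spot intensities were not used here, and the height of each spot above its background is unknown.

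As groups, the proteasome genes of platform A lay slightly on the positive side and those of platform B did not. On platform A 20 of 23 genes (87.0 percent) had a positive mean effect, with a median of 0.0331, against 51.0 percent and a median of 0.0012 over 3838 genes. Pairs 1, 2 and 3 had proteasome medians of 0.0673, 0.0548 and 0.0011, and 18, 15 and 12 of the 23 genes were positive there. On platform B 5 of 18 genes (27.8 percent) were positive, with a median of -0.0065, against 46.0 percent and a median of -0.0032 over 4075 genes. Its pair medians were -0.0278, -0.0094 and 0.0002. Set against the median of all genes in the same pair, the proteasome median differed by 0.0335 ± 0.0194 (SD, n = 3) on platform A and by -0.0079 ± 0.0090 on B. The 20 of 23 became 14 without pair 1, 15 after removal of the trend of each effect with the dye component, and 0 with values as deposited without centring, where the median of all genes itself lay at -0.123.

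**Figure D1:**
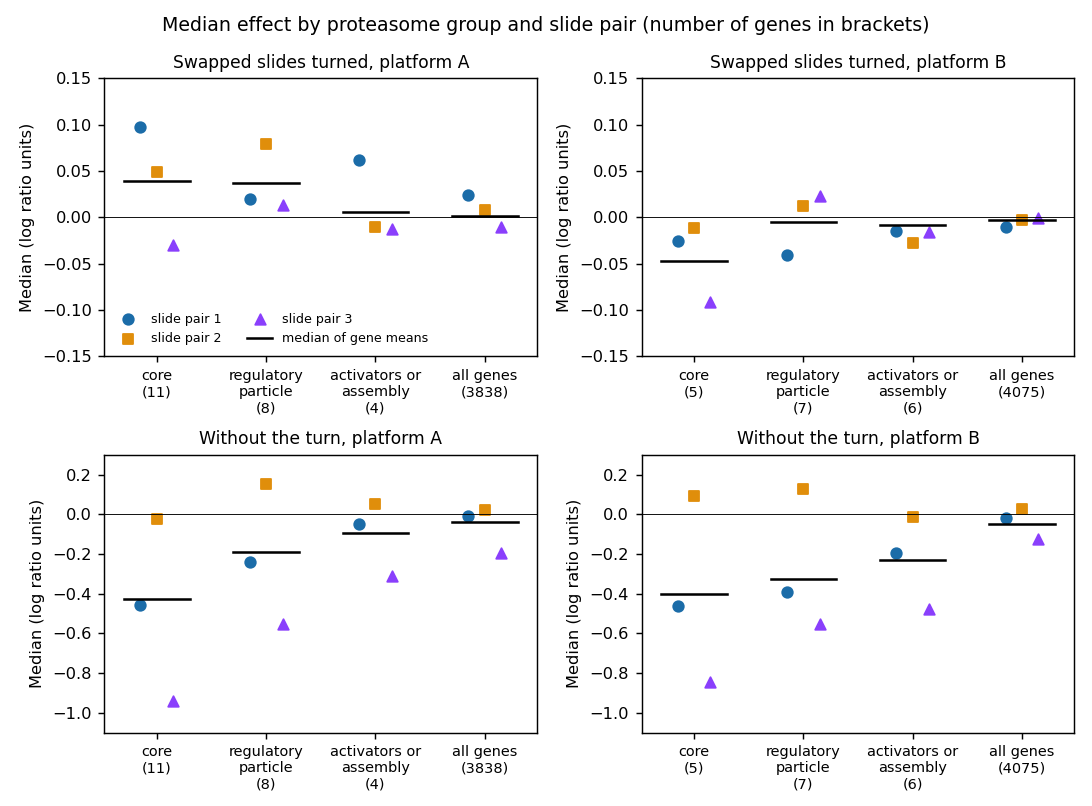
Median effect (log ratio units, y axis) of core, regulatory particle, activator or assembly genes and all genes in each slide pair, for both platforms, with swapped slides turned (top) and without the turn (bottom, on a wider y axis). Points are medians over genes in 1 slide pair and lines are medians of the gene means. With the turn the regulatory particle of platform A lies above 0 in each pair. The core and the activators or assembly factors of platform B lie below 0 in each pair. Without the turn pair 3 lies lowest in each proteasome group and in all genes.

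With the turn, the alpha ring, which gates the core, had positive means for 5 of 5 genes of platform A and 1 of 4 of B. Without the turn all were negative, 5 of 5 with a median of -0.509 on A and 4 of 4 with a median of -0.437 on B. On platform A Psma7 had effects of 0.131, 0.0388 and 0.0336 in pairs 1, 2 and 3, a mean of 0.0678 ± 0.0548 (SD, n = 3). Psma4 had 0.0603, 0.112 and 0.0100, a mean of 0.0608 ± 0.0510. Both were positive in every pair, and neither passed the test. The 2 probes of Psma7 had means of 0.0490 and 0.0866. Psma3, measured by 2 probes with means of 0.0411 and 0.0376, had 0.123, 0.0488 and -0.0539. It shared its order with Psma1 and Psma6: positive in pairs 1 and 2 and negative in pair 3. Over these 2 genes the pair effects ran from -0.167 to 0.192, the widest swing of the platform's core genes. The ring's median followed, with 0.131, 0.0488 and -0.0539 in pairs 1, 2 and 3.

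On platform B, with the turn, most alpha genes had negative means. Psma2 had -0.0240, -0.0166 and -0.140, a mean of -0.0600 ± 0.0689 (SD, n = 3). Psma5 had -0.0388, -0.0110 and -0.0913, a mean of -0.0470 ± 0.0408. These were negative in every pair, with the lowest value in pair 3. Psma4, positive throughout on platform A, had -0.0269, 0.0235 and -0.172 here, a mean of -0.0585 ± 0.102. Psma3 had 0.0273, -0.0329 and 0.0709, a mean of 0.0218 ± 0.0521, and was the alpha gene with a positive mean. None of the 4 passed the test.

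Among the catalytic beta subunits, Psmb7, with trypsin-like activity, and Psmb5, with chymotrypsin-like activity and the main target of proteasome inhibitors, were measured. Psmb7 had 0.0503, 0.0805 and -0.0083 on platform A, a mean of 0.0408 ± 0.0452 (SD, n = 3). Its pairs lay on both sides of 0. Psmb5 had -0.0259, -0.0079 and 0.0268 on platform B, a mean of -0.0023 ± 0.0268. Its 2 probes went apart, with a mean of 0.0311 in the probe positive in all 3 pairs and -0.0357 in the other. Psmb1, a structural beta subunit, had -0.0271, -0.0248 and -0.0293, a mean of -0.0271 ± 0.0022. It was negative in every pair with the smallest spread of any proteasome gene of its platform. Its adjusted p was 0.997 (limma, all probes), with a test that pools the spread over all probes. The 2 records of its slides had opposite signs in each pair. They gave 0.0302 and -0.0844 in pair 1, -0.161 and 0.111 in pair 2, and 0.0172 and -0.0759 in pair 3. With local centring the mean of Psmb1 was 0.0053. The structural subunits Psmb2, Psmb3 and Psmb4 had means from 0.0032 to 0.0537, with pair effects from -0.0700 to 0.127, and all 3 were negative in pair 3. Psmb11, the beta subunit of the thymus proteasome, named after its values were seen, had 0.0109, -0.0725 and 0.125. It was highest in pair 3, where the other beta genes of the platform were negative.

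**Figure D2:**
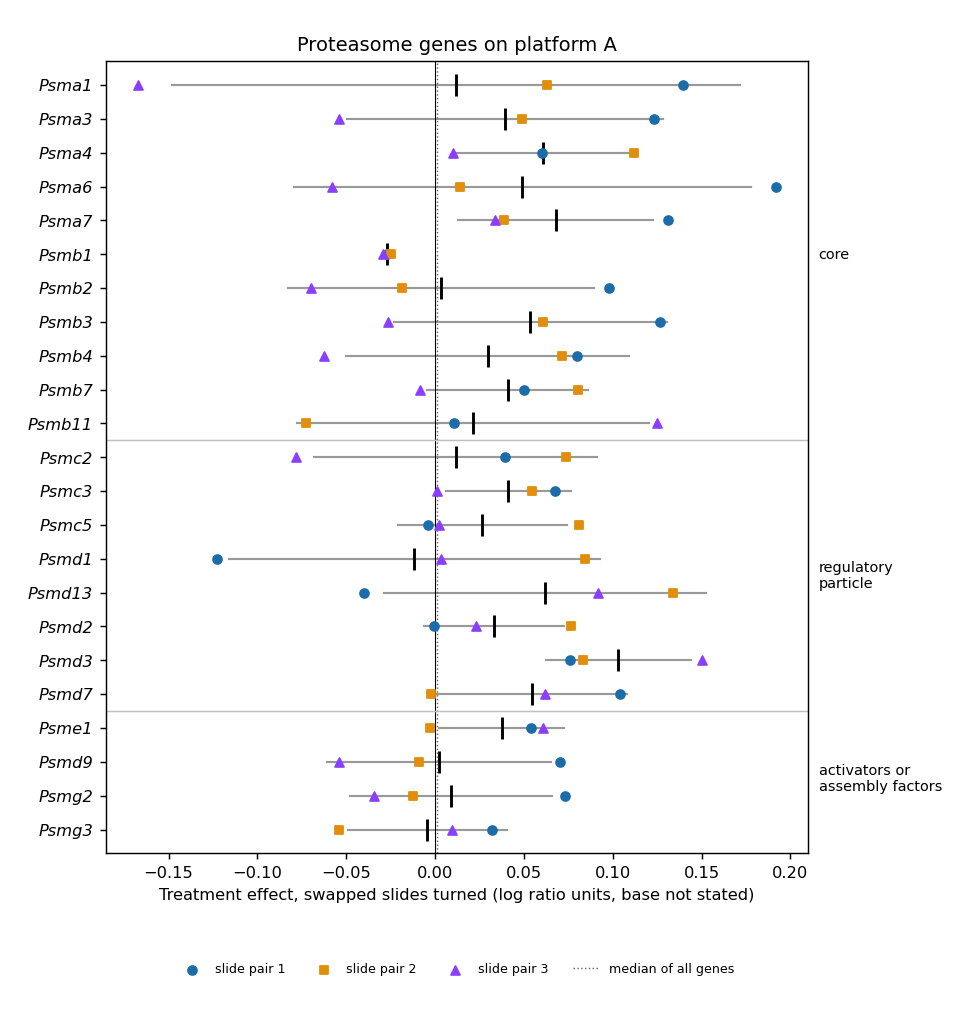
Effects of the 23 proteasome genes of platform A with swapped slides turned (x axis, log ratio units of unstated base), by group. Symbols are the 3 slide pairs, vertical ticks the mean, grey lines the mean ± 1 SD and the dotted line the median of all genes; Psmd3 has the highest mean, 0.103, and the purple triangles of pair 3 lie left of 0 for 8 of 11 core genes.

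In the regulatory particle, the 3 base ATPases of platform A, which unfold substrates, had positive means. Psmc3 had 0.0673, 0.0548 and 0.0011, a mean of 0.0411 ± 0.0352 (SD, n = 3). It was positive in every pair, with 0.0397 and 0.0425 in its 2 probes. Psmc2 had 0.0392, 0.0737 and -0.0781, a mean of 0.0116 ± 0.0796. Its 3 probes, with the evenly spaced numbers 2357, 2389 and 2421, gave means from 0.0023 to 0.0172. Whether probes of a gene are repeats of 1 clone was checked for Psmg4 alone. Psmc5 had -0.0041, 0.0812 and 0.0023, a mean of 0.0265 ± 0.0475. Its 3 probes spread more, from 0.0049 to 0.0559, and 1 of them was positive in all 3 pairs. On platform B Psmc1 had -0.0288, 0.0126 and 0.0026, a mean of -0.0045 ± 0.0216. Its 2 probes lay on either side of 0, at -0.0332 and 0.0242.

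Of the non-ATPase subunits, Psmd3, a scaffold subunit of the lid, had the highest mean of all 36 genes. Its effects were 0.0761, 0.0832 and 0.150 in pairs 1, 2 and 3, a mean of 0.103 ± 0.0410 (SD, n = 3) with a 95 percent upper bound of 0.212. The slides with treated RNA in channel 1 gave 0.264, 0.510 and 0.337, and their swapped partners 0.112, 0.344 and 0.0364. All 6 slides lay above their array medians, and the treated-in-channel-1 slide was higher in each pair. It did not pass the test (adjusted p = 0.997, limma). Psmd13, another lid subunit, had -0.0401, 0.134 and 0.0919, a mean of 0.0619 ± 0.0907, and Psmd1, the large scaffold of the base, had -0.123, 0.0844 and 0.0035, a mean of -0.0116 ± 0.104. Both were negative in pair 1 only. Psmd2, the other base scaffold and a docking site for ubiquitin shuttles, had -0.0006, 0.0767 and 0.0231, a mean of 0.0331 ± 0.0396. Its probe means were 0.0029, 0.0788 and 0.0175. Psmd7, the lid partner of the deubiquitinase, had 0.104, -0.0022 and 0.0619, a mean of 0.0545 ± 0.0534.

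Platform B held the lowest and the highest gene means of its own set among the lid subunits. Psmd6 had 0.0012, -0.0584 and -0.171, a mean of -0.0760 ± 0.0874 (SD, n = 3). Psmd11, which clamps the lid to the core, had -0.0403, 0.0549 and 0.163, a mean of 0.0593 ± 0.102. They lay on opposite sides in every pair, and neither kept 1 sign. Psmd8 had -0.0466, -0.0084 and -0.0265, a mean of -0.0272 ± 0.0191. It was negative in every pair, with probe means of -0.0250 and -0.0294. Psmd2 had -0.0598, 0.0705 and 0.0268 there, and Psmd7 had -0.0659, 0.0361 and 0.0609. Both were negative in pair 1 and positive in pairs 2 and 3. As a group the regulatory particle of that platform had 1 of 7 genes positive in pair 1, 4 in pair 2 and 5 in pair 3. The core of platform A had 10 of 11 genes positive in pair 1, 8 in pair 2 and 3 in pair 3. The median of core minus that of regulatory particle was 0.0020 ± 0.0668 (SD, n = 3 pairs) on platform A and -0.0412 ± 0.0662 on B, each smaller than its spread.

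**Figure D3:**
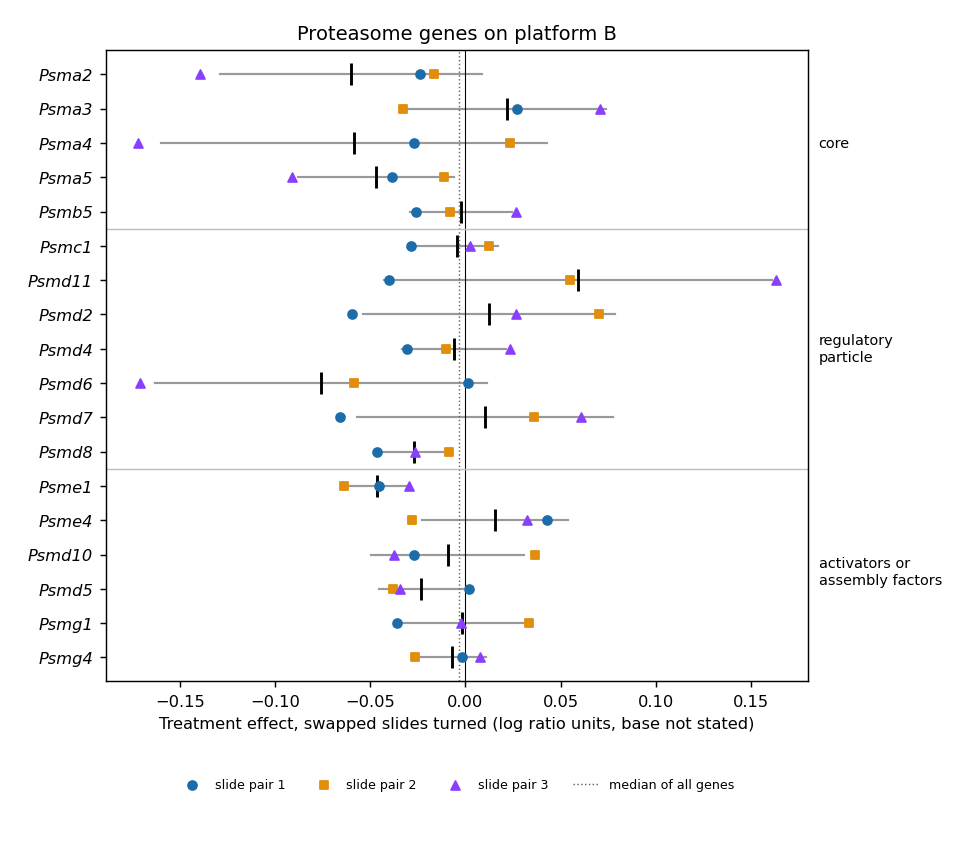
Effects of the 18 proteasome genes of platform B with swapped slides turned (x axis, log ratio units of unstated base), by group. Symbols are the 3 slide pairs, vertical ticks the mean, grey lines the mean ± 1 SD and the dotted line the median of all genes; most means lie left of 0, between -0.0760 for Psmd6 and 0.0593 for Psmd11.

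Of the activators, Psme1, a subunit of the interferon-induced ring that opens the core, was measured on both platforms and Psme4, which activates the core in the nucleus, on B. On platform A Psme1 had 0.0541, -0.0028 and 0.0608, a mean of 0.0374 ± 0.0350 (SD, n = 3). On B it had -0.0452, -0.0640 and -0.0298, a mean of -0.0463 ± 0.0172. It was negative in all 3 pairs of platform B and in 1 pair of A. Psme4 had 0.0427, -0.0281 and 0.0323, a mean of 0.0156 ± 0.0382. The assembly factors had means between -0.0235 and 0.0088 across both platforms. Psmg3, a chaperone of alpha ring assembly, had 0.0318, -0.0542 and 0.0094, a mean of -0.0043 ± 0.0446. Its 2 probes lay at -0.0240 and 0.0153. Psmd10, a chaperone of the base, had -0.0269, 0.0368 and -0.0375, a mean of -0.0092 ± 0.0402, with probe means of -0.0026 and -0.0158. Psmd9 and Psmg2 on platform A had pair effects from -0.0543 to 0.0733, each positive in pair 1 alone. Psmd5 and Psmg1, also assembly factors, and the ubiquitin receptor Psmd4 had means from -0.0235 to -0.0016 on platform B.

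For the 5 genes measured on both platforms, the platforms can be set side by side. Psma3, Psmd2 and Psmd7 had positive means on both, 0.0393 and 0.0218 for Psma3, 0.0331 and 0.0125 for Psmd2 and 0.0545 and 0.0103 for Psmd7. Psma4 and Psme1 had positive means on platform A and negative means on B. Without the turn these signs were alike on both platforms, with -0.530 and -0.471 for Psma4 and -0.173 and -0.350 for Psme1 on A and B. Psma3 then had -0.337 and -0.352, Psmd7 had -0.333 and -0.479, and Psmd2 had 0.0233 and -0.0984. With the turn, for none of the 5 were all pairs of one platform on one side of 0 and all pairs of the other on the opposite side. The difference between platforms was not tested, since the platforms were processed separately and their probes differ.

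**Figure D4:**
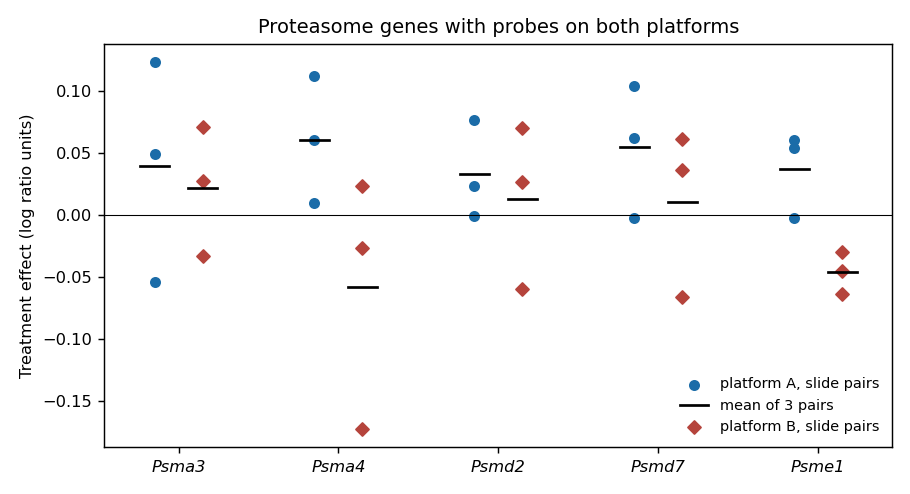
Effects (log ratio units, y axis) of the 5 proteasome genes with probes on both platforms; circles and diamonds are the 3 slide pairs of platforms A and B and lines are means, with swapped slides turned. In this reading Psma4 and Psme1 change the sign of their mean between platforms, from 0.0608 to -0.0585 and from 0.0374 to -0.0463.

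The assembly chaperone Psmg4, partner of Psmg3, gave a measure of spot error. It was printed 25 times on platform B from 1 clone, in 12 spots of 1 run of probe numbers and 13 of another, each in steps of 16, so these spots are repeats and not replicates of the treatment. The gene mean over all spots was -0.0020, -0.0265 and 0.0077 in pairs 1, 2 and 3. Single spots ran from -0.138 to 0.0505 in pair 1, from -0.294 to 0.121 in pair 2 and from -0.0674 to 0.256 in pair 3. The SD over the 25 spots was 0.0426, 0.108 and 0.0616 in pairs 1, 2 and 3, where all 7680 probes had SDs of 0.0580, 0.0789 and 0.0866. In pair 2 the SD over spots was thus above that of different probes. Within the first run it was 0.0611 and within the second 0.117. In that pair, spots 7648, 7664 and 7680 gave -0.454, -0.518 and -0.626 in the second record. Their first record gave 0.0193, 0.0116 and 0.0384. The spot means ran from -0.0843 to 0.0484, which takes in 16 of the other 17 gene means of that platform. The runs also differed: 9 of 12 spots of the first had positive means, with a median of 0.0134, against 1 of 13 in the second, with a median of -0.0172.

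**Figure D5:**
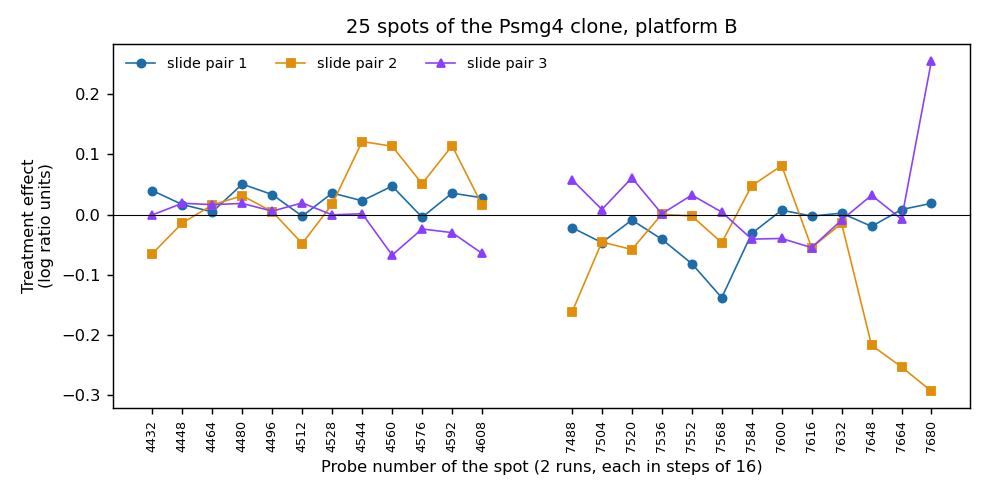
Effects (log ratio units, y axis) of the 25 spots of the Psmg4 clone in the order of their probe numbers (x axis), 1 line per slide pair. In pair 2 the spots of the second run fall to -0.294 and those of the first reach 0.121, although all carry the same clone.

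Few genes kept 1 sign in all pairs. On platform A 4 of 23 genes (Psma4, Psma7, Psmc3 and Psmd3, 17.4 percent) were positive in all 3 pairs, against 13.4 percent of all genes, and Psmb1 (4.35 percent) was negative in all 3, against 10.2 percent. On platform B 0 of 18 genes were positive in all 3 pairs, against 9.72 percent, and 4 (Psma2, Psma5, Psmd8 and Psme1, 22.2 percent) were negative in all 3, against 16.2 percent.

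Read without the turn, the proteasome genes had a lower median than all genes on both platforms. These values are a treatment effect only if swapped slides were turned before deposit, and otherwise the dye component. On platform A 19 of 23 genes (82.6 percent) were negative, with a median of -0.288, where 55.7 percent of all genes were negative with a median of -0.0385. On platform B 18 of 18 were negative, with a median of -0.310, where 59.5 percent of all genes were negative with a median of -0.0491. The pair medians were -0.275, 0.0756 and -0.744 on platform A and -0.354, 0.0698 and -0.573 on B. Pair 3 was lowest and pair 2 lay above 0 in both. The same held for all genes, with -0.008, 0.023 and -0.196 on A and -0.0185, 0.0272 and -0.127 on B. The pairs also differed in width: the SD of this value over all probes was 0.679 and 0.566 in pair 3 of platforms A and B and between 0.241 and 0.355 in the other pairs. Without pair 3 the medians were -0.0710 and -0.152. Primitive erythroid markers of B were also low in this reading, with a median of -0.741 over 3 genes, and the part of these and other cell type markers in the proteasome values was not tested. The proteasome median minus that of all genes was -0.254 ± 0.301 (SD, n = 3) on platform A and -0.246 ± 0.256 on B, each smaller than its spread.

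In this reading too, no proteasome probe passed the test. It was 0 of 33 on platform A, where 2.85 percent of all probes passed, and 0 of 46 on B, where 0 percent did. An unadjusted p under 0.05 was reached by 7 of 33 probes (21.2 percent) on platform A, against 18.5 percent of all probes. On B it was reached by 6 of 46 (13 percent), against 16.3 percent. However, 25 of the 46 probes on B were repeat spots of the Psmg4 clone, which weighs on that share. The 6 were probes of Psma2, Psma4 and Psmc1, both of Psmd8 and a single Psmg4 spot. Negative in all 3 pairs were 7 of 23 genes (30.4 percent) on platform A, against 19.9 percent of all genes, and 5 of 18 (27.8 percent) on B, also against 19.9 percent.

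The core was lowest in this reading. Its median was -0.428 on platform A and -0.402 on B, against -0.190 and -0.328 for the regulatory particle and -0.0957 and -0.228 for activators or assembly factors. Core minus regulatory particle was -0.217, -0.173 and -0.387 in pairs 1, 2 and 3 of platform A, and -0.0688, -0.0328 and -0.291 in those of B. The mean was -0.259 ± 0.113 (SD, n = 3) on A and -0.131 ± 0.140 on B, where it was smaller than its spread. Psma6, singled out after its values were seen as the lowest of platform A, had -0.461, -0.179 and -1.53, a mean of -0.724 ± 0.714 (SD, n = 3), and an adjusted p of 0.0880 (limma). Psma2, the lowest of platform B, had -0.671, -0.0170 and -1.15, a mean of -0.613 ± 0.569. Both had their lowest value in pair 3, where the 2 swapped slides stood at -1.59 and -1.47 for Psma6 and at -1.29 and -1.01 for Psma2. In pair 1 the slides of Psma6 lay further apart, at -0.269 and -0.653. The 4 positive genes of platform A were Psmd3 at 0.267, Psmb11 at 0.263, Psmg3 at 0.0533 and Psmd2 at 0.0233. Probes of a gene could differ widely here, as with -0.608 and -0.0658 for the 2 probes of Psma3.

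Genes that work around the proteasome were mixed. Of the 13 measured on platform A, 8 were positive with the turn, with a median of 0.0285, against 51.0 percent of all genes. On A 0 passed the test, and 1 had an unadjusted p under 0.05 in at least 1 probe, against 2.34 percent of all probes. Of the 10 on B, 5 were positive, with a median of -0.0031, against 46.0 percent of all genes. On B 0 passed, and 1 had an unadjusted p under 0.05 in at least 1 probe, against 5.22 percent of all probes. Without the turn, 10 of 13 were negative on A, with a median of -0.181, and 9 of 10 on B, with a median of -0.178, where all genes had medians of -0.0385 and -0.0491. With the turn, Nfe2l1, the factor that transcribes subunit genes, had 0.176, 0.0718 and 0.121 on platform A, a mean of 0.123 ± 0.0521 (SD, n = 3), positive in every pair. On B it had -0.0459, -0.0538 and 0.0447, a mean of -0.0183 ± 0.0547. Without the turn its means were -0.0644 and -0.143. With the turn, Pomp, which matures the core, had 0.174, 0.0178 and 0.0297. Vcp, the segregase that hands substrates on, had means of 0.0753 ± 0.141 and -0.0318 ± 0.0575 on platforms A and B. Sem1, the small lid subunit without a Psm name, had 0.0317, 0.0177 and 0.0710 on platform B. Pomp and Sem1 had the highest means of the listed subunits and bound factors on their platforms. Of these, 5 of 7 were negative on A, with a median of -0.0063, and 2 of 4 on B, with a median of -0.012. The 2 on B were Ecpas at -0.0308 and Txnl1 at -0.0514, each negative in every pair.

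Markers listed for other cell types, including trophoblast and decidua, were read both ways as well. With the turn, 51.0 percent of all genes had positive means on platform A and 46.0 percent on B. With the turn, of 4 yolk sac endoderm markers on platform A, 4 were negative with a median of -0.0376. Of 3 markers listed for trophoblast or decidua, 3 had positive means with a median of 0.0878. These were Krt8, Krt18 and Prl8a2, and the last had 0.130, -0.192 and 0.584 in pairs 1, 2 and 3. On platform B 3 of 3 primitive erythroid markers were negative with a median of -0.0537. Krt18, measured on B as well, had a mean of 0.0286 there. For leukocytes, which carry the immunoproteasome, 2 of 2 were negative on platform A and Fcer1g had a mean of 0.0247 on B. Without the turn these signs reversed for yolk sac (4 of 4 positive, median 0.122), trophoblast or decidua (3 of 3 negative, median -0.125) and the 2 leukocyte markers of A (2 of 2 positive, median 0.0250). Over all genes, 55.7 percent were negative in this reading on A and 59.5 percent on B. On B Krt18 then had -0.135 and Fcer1g 0.191. The erythroid markers of B remained negative, 3 of 3, with a median of -0.741, below the proteasome median of -0.310. Hba-x, an embryonic globin, had -1.12, Hbb-y, another, had -0.741, and Alas2, the erythroid enzyme of heme synthesis, had -0.0427. Their pair medians were -0.917, -0.0186 and -1.29, lowest in pair 3 as for the proteasome genes and for all genes. The 1 erythroid marker on A, Gata1, was positive at 0.174. With the turn, none of these markers passed the test on either platform, where 0 percent of all probes passed. An unadjusted p under 0.05 in at least 1 probe was reached by 0 of 10 marker genes on A and 1 of 5 on B. Of all probes, 2.34 and 5.22 percent reached it.

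RefSeq promoter sequence (GRCm38.p6, 250 bases before to 50 bases after the start) was at hand for 29 of the 36 genes. It was searched on both strands for TGACNNNGC, the core of the antioxidant response element that Nfe2l1 and related factors bind, and for CCAAT, the box bound by NF-Y. The first was found in 3 of 29 (10.3 percent), against 14 percent of 27025 genes with a promoter entry. The second was found in 11 of 29 (37.9 percent), against 41.1 percent. The promoters of the 3 genes with the response element core are shown since they include the catalytic subunit Psmb5, with the match in capitals and each 5′ to 3′ in the gene's direction. They are Psmb5 at chr14:54618008-54618067 on the minus strand, Psmd9 at chr5:123228130-123228189 on the plus strand and Psme4 at chr11:30771717-30771776 on the plus strand, where the match is on the opposite strand.
Psmb5: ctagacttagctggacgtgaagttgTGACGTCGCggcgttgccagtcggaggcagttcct
Psmd9: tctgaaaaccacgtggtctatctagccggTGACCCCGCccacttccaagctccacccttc
Psme4: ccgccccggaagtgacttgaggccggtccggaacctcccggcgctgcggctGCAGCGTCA
The matches begin 47, 31 and 7 bases before the start. The 3 genes had mean effects of -0.0023, 0.0023 and 0.0156 in that order, and -0.0575, -0.0185 and -0.254 without the turn. Genes with a CCAAT box had a median effect of 0.0393 (7 genes) on platform A and -0.0060 (5 genes) on B, and those without one had 0.0296 (9 genes) and -0.0152 (12 genes). Without the turn the medians were -0.427 and -0.352 with the box and -0.142 and -0.273 without it, on A and B. On A all genes with the box except Psmc2 were core genes, and the core median in that reading was -0.428. Whether the box had a part in these values was not tested. A match in this window is a description and does not show that a factor binds there.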

How the data were processed

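The deposited values, one per probe and array, were log ratios by their range and sign. What the authors did to make them (scanner, background correction, normalization), their log base and their numerator channel are not given in the sources used. The design had assumed log2 ratios, and the test was kept, being the same in any base. Each array was centred on its median, the 2 records of a slide were averaged, and the pair effect was the difference of the swapped slides divided by 2. The 3 pair effects were tested against 0 on each platform over all 7680 probes. This used limma 3.58.1 (lmFit, eBayes, Benjamini-Hochberg, threshold 0.05) in R 4.3.3. A run on simulated, unturned slides required only that changes larger than the mean effects of the proteasome probes be recovered in size. It does not tell whether changes as small as theirs would be called, or whether deposited slides were turned. Probes were named through the platform annotation, 4749 and 4935 with 1 symbol, and averaged per gene for counts and medians. The members and lists were chosen with earlier results of these data known. Genes named were those with 1 sign in all 3 pairs, the 3 highest and 3 lowest means of a platform, genes with several probes or in both tables, and measured catalytic, activator and inhibitor genes. Alternatives covered centring, scaling, quantile normalization, records, channel orientation, local centring, a dye trend (loess span 0.5), single arrays in place of pairs, and each pair left out.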

Additional observations from a re-analysis of the deposited data

How the results depend on the processing

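Without centring, the proteasome median became -0.0908 and -0.0593 on platforms A and B, where all genes lay at -0.123 and -0.0560; 12 and 0 genes were then negative in all pairs, 0 positive, and 33 and 1 of all probes passed. Without the turn the medians were -0.288 and -0.310, with 7 and 5 genes negative and 2 and 0 positive in all pairs and 219 and 0 of all probes past the threshold; uncentred, this median became 0.144 and 1.06, where all genes lay at 0.393 and 1.32. With treated RNA in channel 1 alone the medians were -0.278 and -0.312 (3 genes negative and 2 positive throughout on A, 174 of all probes past the threshold). In channel 2 alone they were 0.329 and 0.280, with 3 and 0 genes negative and 8 and 6 positive throughout. On A 668 of all 7680 probes then passed, among them 2 of the 33 proteasome probes. These 2, of Psma6 and Psmb2, were the only proteasome probes called under any alternative. A single orientation does not cancel the dye component. Psma6 had 0.773 in channel 2 alone and -0.675 in channel 1 alone. Counts of genes of 1 sign also differed with the first record (0 and 7 negative, 8 and 3 positive) and with local centring (0 negative and 8 positive on A). With each pair left out in turn, 24 to 30 and 0 to 58 of all probes passed, and the medians ran from 0.0210 to 0.0509 and from -0.0164 to 0.0009, or without the turn from -0.515 to -0.0710 and from -0.439 to -0.152. Without the replicate block, on single arrays with a dye term, 0 probes passed. The medians, 0.0331 and -0.0065, equal those of the pairs by construction, since the design is balanced. For genes named one by one, 644 values under an alternative were compared, with Psmg4 as the mean of its spots. Of these, 454 moved by no more than their SD over pairs, including those of the single-array fit, which cannot move. Causes were not tested, beyond the shift of all genes given for uncentred values.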
